A study of Drosophila melanogaster with 12 samples.

Results

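A set of 8 genes for chloride and calcium channels was followed in the heads of flies that had been fed pentylenetetrazole (PTZ), a convulsant, some of which then received the antiepileptic drug ethosuximide (ETH). The genes were chosen as relatives of the targets of the 2 drugs, and every probe annotated to them by its current symbol was used, which gave 9 probes for 8 genes out of 13824 probes and 6793 named genes. The ligand-gated chloride channels were Lcch3, GluClalpha, CG6927 and alka, with 1 probe each. The calcium channel list held Ca-alpha1D, Ca-beta and CG16868 with 1 probe each, and stj with 2.

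Ligand-gated chloride channels of the Cys-loop family open when GABA, glutamate or another ligand binds, and the chloride current that follows usually damps the firing of the neuron. PTZ blocks GABA-gated chloride channels. Voltage-gated calcium channels consist of a pore-forming alpha1 subunit with auxiliary beta and alpha2delta subunits, and they admit the calcium that triggers transmitter release and muscle contraction. In mammals ETH is known for its action on T-type calcium channels.

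RNA came from pooled heads of unmated Oregon-R wild-type males, aged 3 to 4 days at the start and kept 30 to a vial, and was measured on 12 spotted arrays with 2 colours, 4 to a group. In all 3 groups the treated flies first spent 7 days on food with 8 mg/ml PTZ. The group PTZ-ETH-NF_14 was then kept for 3 days on 3.48 mg/ml ETH and for 4 days on normal food, and was harvested on day 14. The group PTZ-NF-NF_14 went to normal food for 7 days and was also harvested on day 14. The group PTZ-ETH_10 was harvested on day 10, after 3 days on ETH and with no return to normal food. Each array set this RNA against RNA of untreated males from the parallel set, which stayed on normal food throughout and received neither drug. A head pool mixes neurons, glia, eyes, fat body and muscle, so fewer cells of a type and less RNA per cell cannot be told apart. No group received PTZ alone up to day 10, and no group received ETH alone.

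The deposited log2 ratios, with each array's median set to 0, were read as Cy5 over Cy3. Cy5 marked the treated RNA on replicates 1 and 2 of each group, and Cy3 marked it on replicates 3 and 4, the dye swaps. Turning the sign of the 6 dye swaps gives treated over untreated, and this reading was used unless another is named. No source used here states whether the submitters had already turned the swap ratios. Results without turning are therefore given beside the others for the channel genes and the named genes of related lists. For cell type markers they are given as counts past the threshold. The direction on the 6 arrays with treated RNA in Cy5 is the same under both readings. The p-values come from limma, with a spread shared over the 12 arrays, and a probe was tested in a group when at least 3 of its arrays had a value. Because the arrays give ratios and no levels, the head label could not be checked by marker levels.

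The day-10 arrays stood apart from the day-14 arrays as a set. Between 5077 and 7399 probes had a value on the PTZ-ETH-NF_14 arrays, 6869 to 7433 on the PTZ-NF-NF_14 arrays and 9106 to 10433 on the PTZ-ETH_10 arrays. The SD of the log2 ratios over probes was 0.27 to 0.39 in PTZ-ETH-NF_14, 0.27 to 0.29 in PTZ-NF-NF_14 and 0.46 to 0.58 in PTZ-ETH_10. Print blocks, the patches of the slide laid down by 1 pin, were taken as 48 equal runs of spots in deposited order, without a block label. Their medians had an SD of 0.06 to 0.21 in PTZ-ETH-NF_14, 0.07 to 0.14 in PTZ-NF-NF_14 and 0.22 to 0.37 in PTZ-ETH_10. On the PTZ-ETH_10 arrays the Cy5-over-Cy3 ratios of arrays with opposite dye orientation had Pearson correlations of 0.383 to 0.484 over probes, against -0.0413 to 0.332 in PTZ-ETH-NF_14 and -0.225 to 0.277 in PTZ-NF-NF_14. Harvest day and array set cannot be told apart.

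The channel probes were measured in 76 of 108 possible cases, or 70.4%, against 55.5% for all probes. The share was 44.4% in PTZ-ETH-NF_14 (all probes 45.1%), 72.2% in PTZ-NF-NF_14 (all probes 51.7%) and 94.4% in PTZ-ETH_10 (all probes 69.9%). GluClalpha alone was measured on all 12 arrays. The other probes had values on 6 to 10 arrays, with CG6927 and the second stj probe at the low end and alka at the high end.

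With the dye swaps turned, none of the 8 channel genes passed the adjusted threshold of 0.05 in any group. In PTZ-ETH-NF_14, 0 of the 1 channel gene tested passed, against 0% of 5135 probes tested, of which 188 (3.66%) had an unadjusted p under 0.05. In PTZ-NF-NF_14, 0 of 6 passed, against 0% of 6386 probes, of which 364 (5.7%) had an unadjusted p under 0.05. In PTZ-ETH_10, 0 of 8 genes passed, against 0.232% of 9479 probes, of which 8.59% had an unadjusted p under 0.05. No channel probe had an unadjusted p under 0.05 in these comparisons. Fitted log2 ratios of the genes lay between -0.22 and 0.21 in PTZ-NF-NF_14 and between -0.25 and 0.24 in PTZ-ETH_10.

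**Figure D1:**
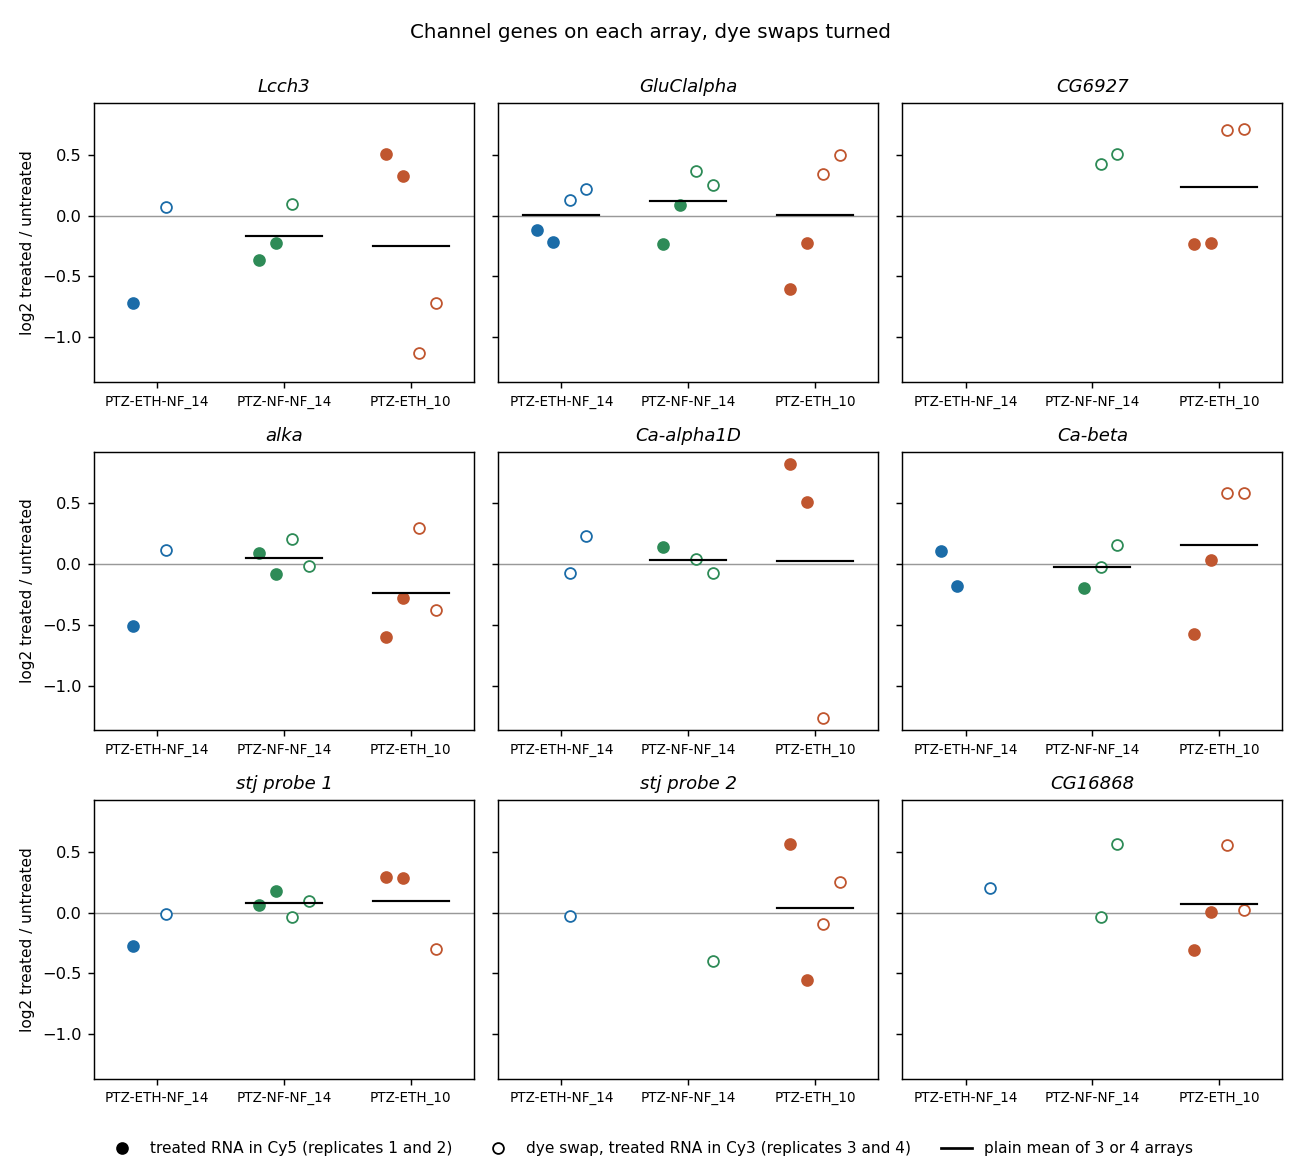
Log2 treated over untreated (vertical axis, array median at 0) of the 9 channel probes on each array, by group, with filled points for treated RNA in Cy5, open points for dye swaps after turning, and a bar at the plain mean of 3 or 4 arrays. On the PTZ-ETH_10 arrays the filled and open points of Lcch3, GluClalpha, CG6927, Ca-alpha1D and the first stj probe lie on opposite sides of 0.

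GluClalpha encodes the glutamate-gated chloride channel that is the target of avermectins. Its Cy5-over-Cy3 log2 ratio in PTZ-ETH-NF_14 was -0.11 and -0.21 with treated RNA in Cy5, and -0.13 and -0.22 on the dye swaps. On the PTZ-NF-NF_14 arrays it was -0.23 and 0.09 with treated RNA in Cy5, and -0.37 and -0.25 on the swaps. On the PTZ-ETH_10 arrays it was -0.60 and -0.22 with treated RNA in Cy5, and -0.35 and -0.50 on the swaps. With the array median at 0, Cy5 over Cy3 was therefore below 0 on 11 of 12 arrays, whichever RNA Cy5 held. The day-14 and day-10 values of GluClalpha overlapped on this scale. The fitted dye term, the mean excess of Cy5 whatever its RNA, was -0.26 ± 0.067 (SE) on the log2 scale.

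After turning and with that dye term, the fitted treated-over-untreated difference of GluClalpha was 0.0043 in PTZ-ETH-NF_14 (95% interval -0.24 to 0.25, limma adjusted p = 1.00). It was 0.12 in PTZ-NF-NF_14 (-0.13 to 0.37, adjusted p = 0.903) and 0.0061 in PTZ-ETH_10 (-0.25 to 0.26, adjusted p = 0.989). Averaged over the groups it was 0.04 ± 0.067 (SE, 12 arrays), a 1.03-fold ratio with an interval of 0.932 to 1.14, and did not pass (adjusted p = 0.814), against 0.024% of 4164 probes that passed. PTZ-ETH-NF_14 was also set against each of the other groups. PTZ-ETH-NF_14 minus PTZ-NF-NF_14 was -0.12 (interval -0.47 to 0.24, limma adjusted p = 1.00), in a comparison where 0% of 4766 probes passed and 54 had an unadjusted p under 0.05. PTZ-ETH-NF_14 minus PTZ-ETH_10 was -0.0018 (interval -0.36 to 0.36, limma adjusted p = 0.999), where 0.0449% of 4451 probes passed. GluClalpha was the only channel gene with enough arrays for these last comparisons. The comparison with PTZ-NF-NF_14 was made 4 days after ETH ended, so it concerns earlier ETH. Both groups of the comparison with PTZ-ETH_10 had received ETH, and they differed in harvest day and in the return to normal food.

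Lcch3 encodes a GABA-receptor subunit of the Cys-loop family. Its Cy5-over-Cy3 log2 ratio in PTZ-ETH-NF_14 was -0.72 with treated RNA in Cy5 and -0.07 on a dye swap, with no value on the other arrays. In PTZ-NF-NF_14 it was -0.37 and -0.22 with treated RNA in Cy5, and -0.10 on 1 swap. At day 10, in PTZ-ETH_10, it was 0.51 and 0.33 with treated RNA in Cy5, and 1.13 and 0.72 on the swaps. All 5 day-14 values were below 0 and all 4 day-10 values above 0, so the harvest days did not overlap on this scale. The same order without overlap held for 8.76% of 6803 probes. Arrays with treated RNA in Cy5 have the same direction under either reading of the swaps. On these, treated over untreated was below 0 on 3 of 3 day-14 arrays and above 0 on 2 of 2 day-10 arrays. The share of all probes with this pattern was not counted. With print-block medians subtracted, the day-10 values were 0.014 on replicate 1, where the block median was 0.50, and 0.21 on replicate 2. The day-14 values were then -0.57, -0.45 and -0.27. After turning, the limma fit gave -0.22 ± 0.29 (SE, n = 3) in PTZ-NF-NF_14 (interval -0.86 to 0.42, adjusted p = 0.932) and -0.25 ± 0.25 (SE, n = 4) in PTZ-ETH_10 (interval -0.81 to 0.31, adjusted p = 0.816). The plain mean of Lcch3 in PTZ-NF-NF_14 was -0.17.

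CG6927, annotated only by its gene number, had no value in PTZ-ETH-NF_14. In PTZ-NF-NF_14 its Cy5-over-Cy3 log2 ratio was -0.42 and -0.51 on the swaps alone. In PTZ-ETH_10 it was -0.23 and -0.23 with treated RNA in Cy5, and -0.71 and -0.71 on the swaps. All 6 values were below 0, and the swaps were the lower ones. The paired spots averaged here differed by 0.536, 0.041, 0.415 and 0.525 on PTZ-ETH_10 replicates 1, 2, 3 and 4. The turned limma fit in PTZ-ETH_10 was 0.24 ± 0.11 (SE, n = 4), with an interval of -0.03 to 0.51 and an adjusted p of 0.607. This was the smallest unadjusted p among the channel genes in that group, 0.0705.

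The gene alka encodes a chloride channel through which taste neurons sense alkaline food. Its Cy5-over-Cy3 log2 ratio was -0.51 with treated RNA in Cy5 and -0.12 on a swap in PTZ-ETH-NF_14. On the PTZ-NF-NF_14 arrays it was 0.09 and -0.08 with treated RNA in Cy5, and -0.21 and 0.02 on the swaps. On the PTZ-ETH_10 arrays it was -0.60 and -0.28 with treated RNA in Cy5, and -0.30 and 0.38 on the swaps. Values of both signs occurred in both groups with 4 arrays, and the groups overlapped. The turned limma fit was 0.05 ± 0.14 (SE, n = 4) in PTZ-NF-NF_14 (interval -0.25 to 0.35, adjusted p = 0.969) and -0.24 ± 0.14 (SE, n = 4) in PTZ-ETH_10 (interval -0.55 to 0.06, adjusted p = 0.648).

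Ca-alpha1D encodes the pore-forming subunit of the fly's L-type calcium channel. Its Cy5-over-Cy3 log2 ratio in PTZ-ETH-NF_14 was 0.07 and -0.23 on the swaps, with no value on the other arrays. In PTZ-NF-NF_14 it was 0.14 with treated RNA in Cy5, and -0.04 and 0.07 on the swaps. At day 10, in PTZ-ETH_10, it was 0.82 and 0.51 with treated RNA in Cy5, and 1.26 on the 1 swap measured. Every day-10 value lay above every day-14 value, as for 8.76% of 6803 probes. The paired spots of this probe differed by up to 1.07 on the log2 scale, on PTZ-ETH_10 replicate 1, where the deposited values were 1.24 and 0.169. With a fitted dye term of 0.52 ± 0.18 (SE), the turned limma fit was 0.21 ± 0.24 (SE, n = 3) in PTZ-NF-NF_14 (interval -0.33 to 0.76, adjusted p = 0.914), against a plain mean of 0.04. In PTZ-ETH_10 it was -0.15 ± 0.25 (SE, n = 3; interval -0.72 to 0.41, adjusted p = 0.894), against a plain mean of 0.02.

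Ca-beta encodes the auxiliary beta subunit, which in mammals helps bring the pore subunit to the membrane. Its Cy5-over-Cy3 log2 ratio was 0.11 and -0.18 with treated RNA in Cy5 in PTZ-ETH-NF_14. On the PTZ-NF-NF_14 arrays it was -0.20 with treated RNA in Cy5, and 0.02 and -0.16 on the swaps. On the PTZ-ETH_10 arrays it was -0.58 and 0.03 with treated RNA in Cy5, and -0.58 and -0.59 on the swaps. Of the 4 day-10 values, 3 were below every day-14 value and the other lay among them. The turned limma fit was -0.12 ± 0.16 (SE, n = 3) in PTZ-NF-NF_14 (interval -0.49 to 0.24, adjusted p = 0.932) and 0.16 ± 0.14 (SE, n = 4) in PTZ-ETH_10 (interval -0.16 to 0.47, adjusted p = 0.798). This fit holds a common dye term of -0.31, and the plain mean of Ca-beta in PTZ-NF-NF_14 was -0.0195.

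The gene stj (straightjacket) encodes an alpha2delta subunit, which supports calcium channels at the presynaptic membrane. On its better measured probe the Cy5-over-Cy3 log2 ratio was -0.27 with treated RNA in Cy5 and 0.014 on a swap in PTZ-ETH-NF_14. In PTZ-NF-NF_14 it was 0.06 and 0.18 with treated RNA in Cy5, and 0.03 and -0.10 on the swaps. At day 10, in PTZ-ETH_10, it was 0.29 and 0.29 with treated RNA in Cy5, and 0.30 on the 1 swap measured. The 3 day-10 values, each a mean of paired spots, were close together and above all 6 day-14 values. This order was found for 8.76% of 6803 probes. On PTZ-ETH_10 replicate 2 the paired spots differed by 0.618 on the log2 scale, with deposited values of -0.082 and 0.536. The second stj probe did not share this order. In PTZ-ETH_10 it gave 0.56 and -0.555 with treated RNA in Cy5, and 0.095 and -0.25 on the swaps. The turned limma fits in PTZ-ETH_10 were 0.06 ± 0.15 (SE, n = 3, adjusted p = 0.934) for the first probe and 0.04 ± 0.20 (SE, n = 4, adjusted p = 0.969) for the second, with intervals of -0.27 to 0.40 and -0.43 to 0.51. In PTZ-NF-NF_14 the first probe gave 0.08 ± 0.12 (SE, n = 4; interval -0.20 to 0.35, limma adjusted p = 0.937).

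CG16868 had 1 value in PTZ-ETH-NF_14, a Cy5-over-Cy3 log2 ratio of -0.20 on a swap, and swap values of 0.04 and -0.57 in PTZ-NF-NF_14. In PTZ-ETH_10 it was -0.305 and 0.0025 with treated RNA in Cy5, and -0.55 and -0.018 on the swaps. The day-14 and day-10 values overlapped. The turned limma fit in PTZ-ETH_10 was 0.07 ± 0.16 (SE, n = 4; interval -0.30 to 0.43, adjusted p = 0.934).

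**Figure D2:**
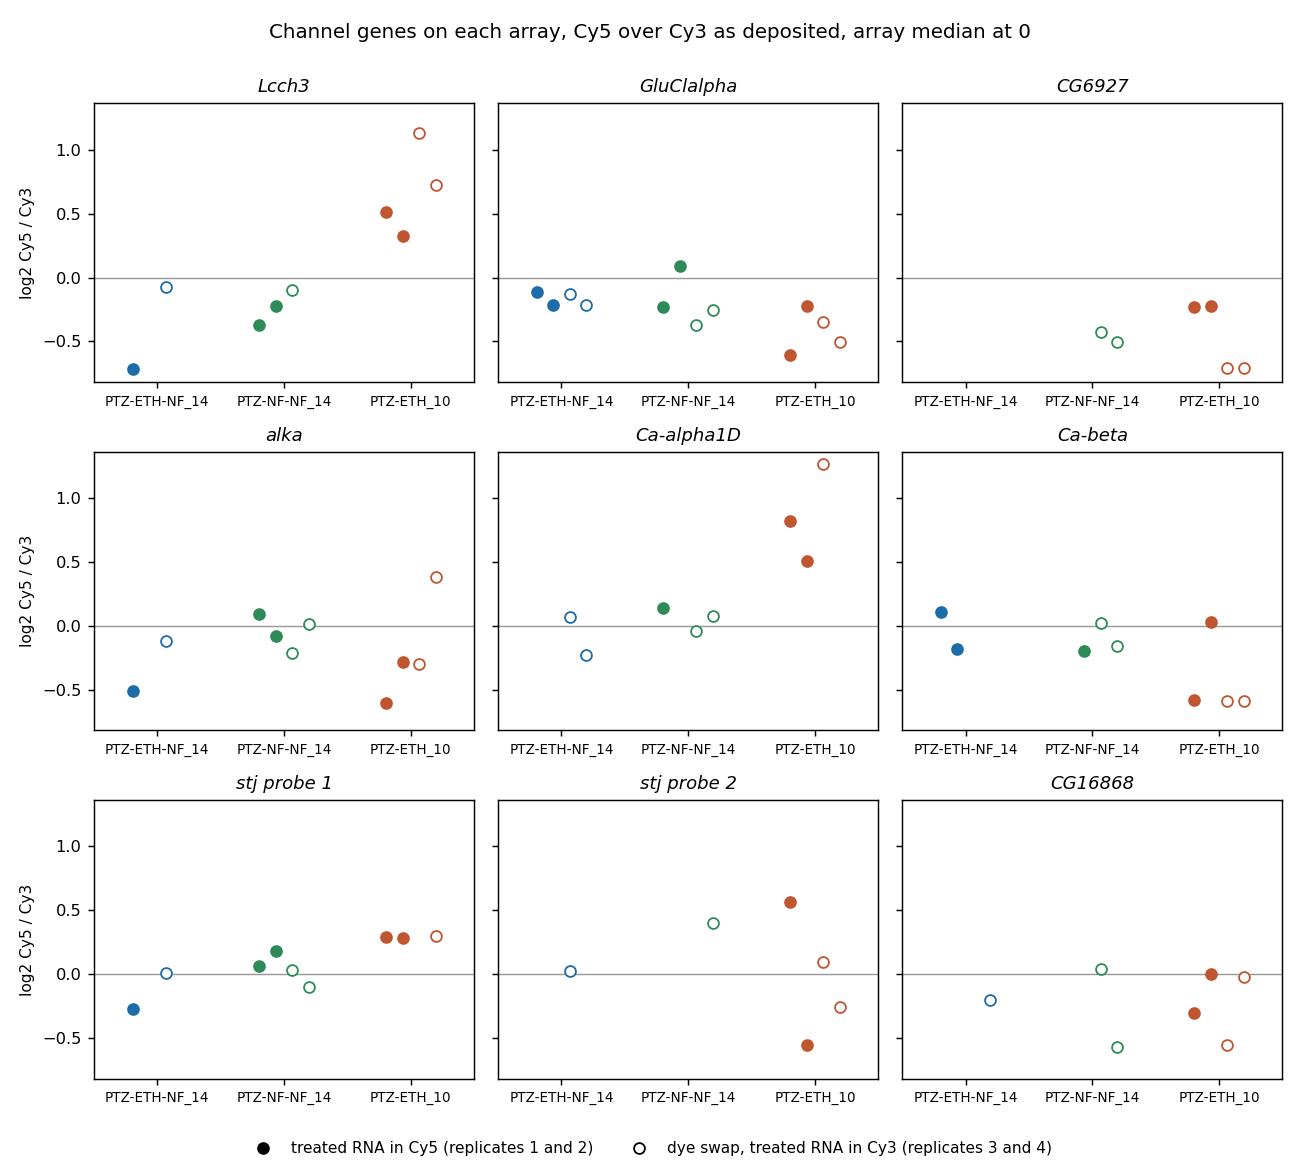
Log2 Cy5 over Cy3 as deposited, with the array median at 0 (vertical axis), of the 9 channel probes on each array by group, with filled points for treated RNA in Cy5 and open points for dye swaps. On this scale the PTZ-ETH_10 values of Lcch3, Ca-alpha1D and the first stj probe all lie above the values of both day-14 groups.

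The reading of the dye swaps decided which channel genes passed at day 10. When the swaps were not turned, 5 of the 8 genes passed in PTZ-ETH_10, where 30.7% of 9479 probes passed. Ca-alpha1D was higher in the treated channel so read, by 0.91 ± 0.16 (SE, n = 3, limma adjusted p = 0.00651), and Lcch3 by 0.67 ± 0.11 (SE, n = 4, adjusted p = 0.00525). GluClalpha was lower, at -0.42 ± 0.10 (SE, n = 4, limma adjusted p = 0.0111), as were CG6927 at -0.47 ± 0.10 (n = 4, adjusted p = 0.0145) and Ca-beta at -0.43 ± 0.13 (n = 4, adjusted p = 0.0323). So read, the chloride channel list had 1 gene higher and 2 lower of 4, and the calcium channel list had 1 higher and 1 lower of 4. The first stj probe gave 0.29 (limma adjusted p = 0.0888), alka -0.20 (0.291), CG16868 -0.22 (0.296) and the second stj probe -0.04 (0.904), and none of these passed.

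At day 14 the unturned reading passed no channel gene, with 0 of 1 tested in PTZ-ETH-NF_14 and 0 of 6 in PTZ-NF-NF_14. By limma, 0% of 5135 probes passed in PTZ-ETH-NF_14, with 662 at an unadjusted p under 0.05, and 0.047% of 6386 passed in PTZ-NF-NF_14. Averaged over the 3 groups, GluClalpha was -0.26 ± 0.058 (SE, 12 arrays, limma adjusted p = 0.0136) without turning, where 16.7% of 4164 probes passed. The size of this value is that of the dye term in the turned fit, because the design gives each group 2 arrays of each orientation. Without turning, GluClalpha differed by 0.02 for PTZ-ETH-NF_14 minus PTZ-NF-NF_14 (interval -0.28 to 0.33, limma adjusted p = 0.999), where 0% of probes passed and 85 had an unadjusted p under 0.05. For PTZ-ETH-NF_14 minus PTZ-ETH_10 it differed by 0.25 (interval -0.05 to 0.56, limma adjusted p = 0.290), where 5.14% of probes passed.

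**Figure D3:**
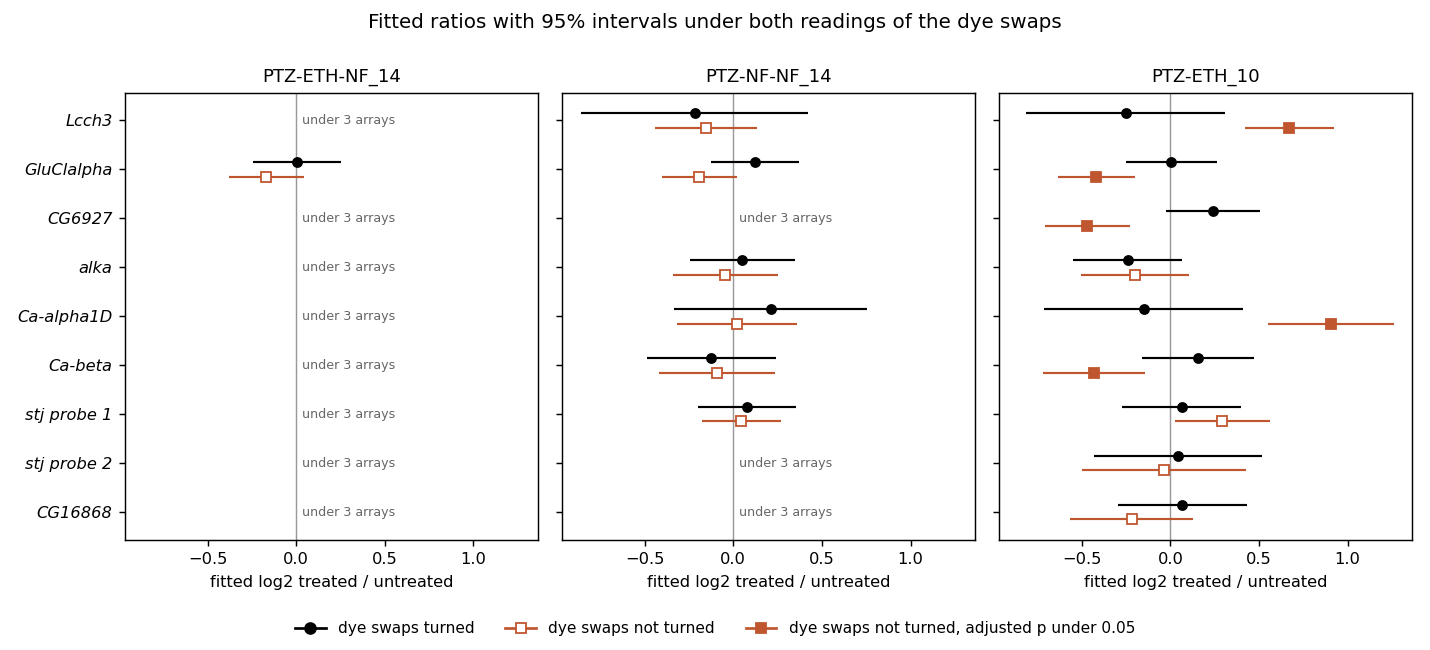
Fitted log2 treated over untreated (horizontal axis) with 95% intervals of the 9 channel probes in each group, with dye swaps turned (black circles) and not turned (orange squares, filled where the adjusted p was under 0.05). The filled squares are Lcch3, GluClalpha, CG6927, Ca-alpha1D and Ca-beta in PTZ-ETH_10, and every black interval includes 0.

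At day 10 the sign was shared by every measured array for 5 of the 9 channel probes as Cy5 over Cy3, against 44.4% of all 9479 probes tested. After turning it was shared for 0 of 9, against 11.1%. In PTZ-NF-NF_14 the counts were 1 of 6 as Cy5 over Cy3, against 22.2%, and 0 of 6 after turning, against 25.2%. GluClalpha in PTZ-ETH-NF_14 had 1 sign on its 4 arrays as Cy5 over Cy3, as had 27.4% of probes there, and both signs after turning, where 16.6% of probes had 1 sign.

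**Figure D4:**
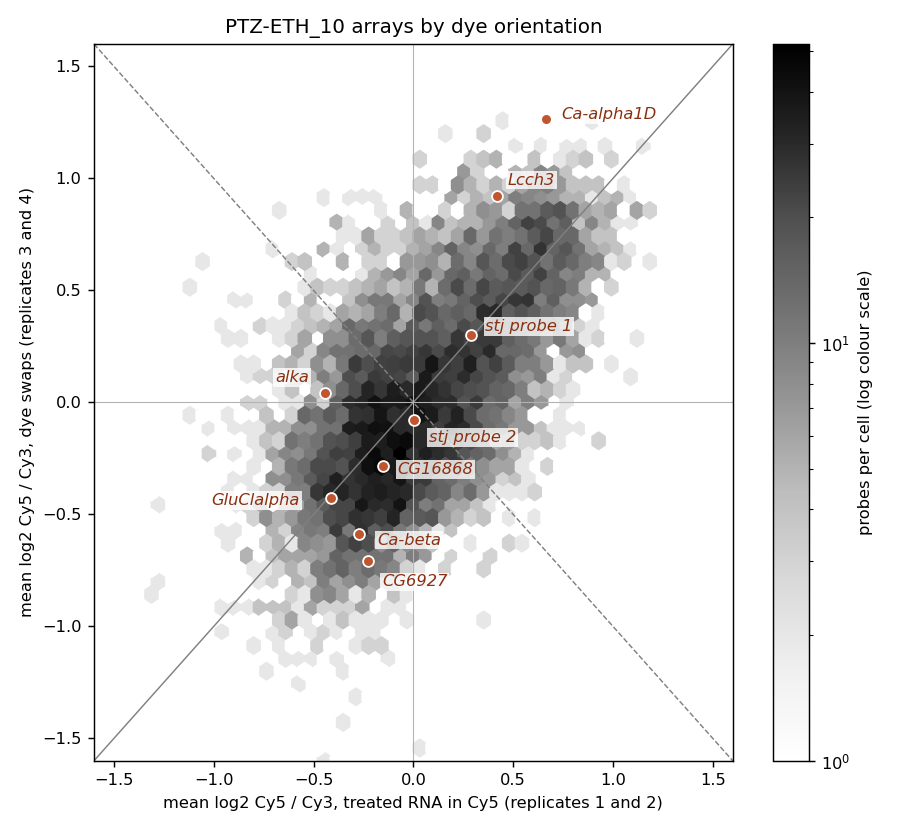
Mean log2 Cy5 over Cy3 on the PTZ-ETH_10 arrays with treated RNA in Cy5 (horizontal axis) and on the dye swaps (vertical axis), with all probes as grey cells on a log colour scale and the 9 channel probes as points. A ratio that follows the treatment would lie along the dashed line if the swaps need turning, and Lcch3, Ca-alpha1D, stj probe 1, GluClalpha, CG6927, Ca-beta and CG16868 lie nearer to the solid line of equal values.

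Position on the slide, as print blocks taken from the order of the spots, was compared with the day-10 values of the channel probes. The median Cy5-over-Cy3 log2 ratio of the print block that holds the probe was 0.12 to 0.62 over the PTZ-ETH_10 arrays for Lcch3, 0.25 to 0.33 for Ca-alpha1D, -0.80 to -0.37 for CG6927 and -0.53 to -0.19 for Ca-beta. It had the sign of the probe's unturned fit in these 4 cases, although for Ca-alpha1D the highest block median was on the array with the lowest value, replicate 2. For alka it was 0.07 to 0.42, opposite in sign to the fit. It had both signs for GluClalpha and CG16868, at -0.07 to 0.26, for the first stj probe, at -0.05 to 0.08, and for the second, at -0.18 to 0.34. The part of slide position in these values was not tested. With the block medians subtracted and the swaps not turned, a combination chosen after seeing the data, GluClalpha at -0.55 (limma adjusted p = 0.0142) and Ca-alpha1D at 0.65 (adjusted p = 0.0230) still passed in PTZ-ETH_10, where 17.5% of probes passed. Lcch3 gave 0.25 (adjusted p = 0.0861), CG6927 0.05 (0.769) and Ca-beta -0.08 (0.598) in that fit and did not pass. The mean of GluClalpha over the 3 groups was -0.28 in it (limma adjusted p = 0.0224), where 10.4% of probes passed. No channel gene passed at day 14 or between the ETH groups in that fit, where the shares of all probes were 0.136% in PTZ-ETH-NF_14, 0.094% in PTZ-NF-NF_14 and 3.53% for PTZ-ETH-NF_14 minus PTZ-ETH_10.

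The harvest days were compared on the Cy5-over-Cy3 scale for the 7 channel probes with at least 3 values on each. For 3 of the 7, Lcch3, Ca-alpha1D and the first stj probe, all day-14 values lay below all day-10 values, against 8.76% of 6803 probes. For 0 of 7 did the day-14 values all lie above, against 5.57% of probes. Plain means differed, day 14 minus day 10, by -0.97 for Lcch3, -0.86 for Ca-alpha1D and -0.31 for the first stj probe. Such means pool arrays of both dye orientations, in a mix that differed between the days. If the swaps need turning, they are no contrast of treated with untreated RNA. After subtraction of block medians these 3 probes were again apart with day 14 lower, against 5.28% of probes, and 0 of 7 with day 14 higher, against 7.33%, or 12.6% in either direction. The differences were then -0.54 for Lcch3, -0.60 for Ca-alpha1D and -0.28 for the first stj probe. As treated over untreated after turning, the days overlapped for 7 of 7 probes, and 1.81% of all probes were apart, 0.764% with day 14 lower and 1.04% with day 14 higher.

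Patterns of other genes across the arrays were compared with those of GluClalpha and alka, the channel genes with at least 10 arrays, after turning and removal of the dye term. The probes most like GluClalpha were those of nrv3, which encodes a beta subunit of the sodium pump, with r = 0.94 over 11 arrays, mop with r = 0.92 over 10 and Idgf6 with r = 0.89 over 11. Of 2841 candidate probes, 0.739% had r above 0.8. Those most like alka were TSG101 with r = 0.93, Sms with r = 0.92 and CG4593 with r = 0.91, each over 10 arrays, out of 1617 candidates. These correlations share arrays, slide position effects and the 2 dyes, and are given as a description.

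Related genes gave the setting for the channel genes. No probe with a single gene was found here for the 8 other ligand-gated chloride channel subunits or the 4 other voltage-gated calcium channel subunits listed, so these were not analysed here. With the dye swaps turned, no gene of the 5 remaining lists passed in any comparison. Of the genes for the NALCN sodium leak channel complex, 3 of 4 had a probe. In that list unc80, an auxiliary subunit, ranged from 0.04 to 0.60 on the 4 PTZ-NF-NF_14 arrays, all above 0. After turning, 25.2% of 6386 probes had 1 sign on every measured array of that group. The fitted log2 ratio of unc80 there was 0.27 ± 0.12 (SE, limma adjusted p = 0.854). The fit was 0.21 ± 0.13 in PTZ-ETH_10 (limma adjusted p = 0.665) and 0.02 ± 0.12 in PTZ-ETH-NF_14 (adjusted p = 1.00), and unc79 gave -0.02 in PTZ-ETH_10. The values of unc80 depended on the reading of the swaps: as Cy5 over Cy3 it ranged from -0.28 to 0.60 in PTZ-NF-NF_14, and the unturned fits were -0.03 in PTZ-ETH-NF_14, 0.05 in PTZ-NF-NF_14 and -0.0018 in PTZ-ETH_10. No gene of the complex passed without turning, and unc79 gave -0.04 in PTZ-ETH_10.

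Among chloride transporters and other chloride channels, 6 of 12 genes had a probe. The 3 tested in PTZ-NF-NF_14 had fitted log2 ratios above 0, as had 48.4% of all probes tested. Their median was 0.16, against -0.0078 for all probes tested. ClC-c, a chloride transporter of the ClC family, lay between 0.06 and 0.33 on the 4 arrays there, where 25.2% of probes had 1 sign after turning. Its fit was 0.20 ± 0.11 (SE, limma adjusted p = 0.877), and Best2, a bestrophin, gave 0.16 ± 0.12 (adjusted p = 0.879). ClC-b was near 0 in PTZ-ETH-NF_14, at 0.014 ± 0.16. The median of the list was 0.08 over 2 genes in PTZ-ETH-NF_14, against 0.0034 for all probes tested, and 0.05 over 5 genes in PTZ-ETH_10, against 0.019. Without turning, 1 of the 3 genes was above 0 in PTZ-NF-NF_14, with a list median of -0.0057, and ClC-c gave -0.0057 and Best2 -0.03 there. ClC-b in PTZ-ETH-NF_14 then gave 0.14. The direction of the list in PTZ-NF-NF_14 therefore did not hold under both readings, and without turning 1 of 5 genes passed in PTZ-ETH_10, lower, against 30.7% of probes.

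Among calcium pumps, stores and sensors, 4 of 17 genes had a probe. Nckx30C, a sodium-calcium exchanger that depends on potassium, had fitted log2 ratios of 0.24 in PTZ-ETH-NF_14, 0.17 in PTZ-NF-NF_14 and 0.28 in PTZ-ETH_10. Over the 3 groups the mean was 0.23 ± 0.078 (SE, 12 arrays), which did not pass (limma adjusted p = 0.245). Without turning the swaps it was 0.31 and passed (limma adjusted p = 0.0140), as did 16.7% of 4164 probes. On the PTZ-ETH_10 arrays it was above 0 on 3 of 4, with a range of -0.02 to 0.58. CanB, the regulatory subunit of calcineurin, was below 0 on 4 of 4 PTZ-NF-NF_14 arrays, where 25.2% of probes had 1 sign after turning. Its fit there was -0.10 ± 0.13, and Fkbp12 gave -0.18 ± 0.13 in PTZ-ETH_10. Without turning, Nckx30C gave 0.45 in PTZ-ETH-NF_14, 0.22 in PTZ-NF-NF_14 and 0.26 in PTZ-ETH_10, CanB gave -0.06 in PTZ-NF-NF_14 and Fkbp12 gave -0.07 in PTZ-ETH_10. In PTZ-ETH_10, 1 of the 4 genes then passed, lower, against 30.7% of probes.

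Among acetylcholine-gated cation channel subunits, which belong to the same Cys-loop family as the chloride channels, 5 of 10 genes had a probe. In PTZ-ETH_10 all 5 were tested, with fitted log2 ratios of -0.05 to 0.12. Without turning, 4 of these 5 passed there, 3 higher and 1 lower, against 30.7% of all probes, with nAChRbeta1 at 0.66 (limma adjusted p = 0.00397) and nAChRbeta2 at 0.74 (adjusted p = 0.00904). The Cy5-over-Cy3 values of nAChRbeta1 were 0.45 to 0.84 on the 4 day-10 arrays. They lay above the range of -0.18 to 0.28 in PTZ-ETH-NF_14 and of -0.22 to 0.35 in PTZ-NF-NF_14. Of 6803 probes, 8.76% had all day-14 values below all day-10 values on this scale. After turning, the day-10 values of nAChRbeta1 ran from -0.64 to 0.84 and spanned those of both day-14 groups.

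Of the voltage-gated sodium and potassium channel list, 7 of 17 genes had a probe, and the 7 fits in PTZ-ETH_10 ran from -0.22 for tipE, an auxiliary sodium channel subunit, to 0.20 for Sh, the Shaker potassium channel. As Cy5 over Cy3, tipE was above 0 on all 4 day-10 arrays, at 0.11 to 1.18, with an unturned fit of 0.64 (limma adjusted p = 0.0289). On this scale 44.4% of 9479 probes had 1 sign on every measured day-10 array. In PTZ-ETH-NF_14, Shab, a delayed rectifier potassium channel, gave -0.15 ± 0.14 (SE, n = 3), and Sh 0.07 ± 0.11 (SE, n = 4). In PTZ-NF-NF_14, Elk gave -0.06 and Ih, a channel opened by hyperpolarization, -0.05. Over the 3 groups sei, a potassium channel of the ERG type, gave 0.04 ± 0.11. Without turning, 2 of the 7 genes passed in PTZ-ETH_10, both higher, against 30.7% of probes, and Sh gave -0.16 there and -0.19 in PTZ-ETH-NF_14, opposite in sign to its turned values. The unturned fits were -0.23 for Shab in PTZ-ETH-NF_14, -0.31 for Elk and 0.04 for Ih in PTZ-NF-NF_14, and -0.11 for sei over the 3 groups.

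Marker genes of 6 cell types that a head can hold were read on the same scale. In PTZ-ETH_10 the fitted log2 ratio of treated over untreated was below 0 for 6 of 6 glial markers with a probe, with a median of -0.30. Of these, 3 had an unadjusted limma p under 0.05. Over all probes tested there, 53.7% were above 0, the median was 0.019 and 8.59% had an unadjusted p under 0.05. The fitted ratio was above 0 for 2 of 2 neuronal markers with a probe, out of 8 listed, with a median of 0.18. The median of the glial markers on a single PTZ-ETH_10 array ranged from -0.60 to 0.05, and that of the neuronal markers from -0.17 to 0.66. In PTZ-ETH-NF_14, 4 of 4 glial markers were below 0, with a median of -0.06 and 1 at an unadjusted limma p under 0.05. Of all probes there, 50.9% were above 0 and 3.66% had such a p. The 1 neuronal marker tested gave -0.16. In PTZ-NF-NF_14 the glial median was -0.012 over 3 genes, 1 of them at an unadjusted limma p under 0.05, against 5.7% of all probes. The neuronal marker gave 0.06 there.

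The median of the photoreceptor markers was -0.15 over 5 genes in PTZ-ETH-NF_14, -0.09 over 5 in PTZ-NF-NF_14 and -0.09 over 6 in PTZ-ETH_10. That of the fat body markers was 0.013 over 4 genes in PTZ-ETH-NF_14, 0.013 over 5 in PTZ-NF-NF_14 and -0.014 over 6 in PTZ-ETH_10. Over 3 muscle markers it was -0.12 in PTZ-ETH-NF_14, -0.06 in PTZ-NF-NF_14 and -0.02 in PTZ-ETH_10. The haemocyte markers gave -0.04 over 2 genes in PTZ-ETH-NF_14, -0.16 over 2 in PTZ-NF-NF_14 and 0.10 over 4 in PTZ-ETH_10. An unadjusted limma p under 0.05 was found for 2 of 6 fat body markers in PTZ-ETH_10 (8.59% of all probes) and 2 of 5 in PTZ-NF-NF_14 (5.7%). Fat body fits ran from -0.72 to 0.03 in PTZ-ETH_10 and from -0.32 to 0.34 in PTZ-NF-NF_14. The fat body median on a single PTZ-ETH_10 array ranged from -0.52 to -0.12. Such a p was also found for 1 of 5 photoreceptor markers in PTZ-ETH-NF_14 and 1 of 3 muscle markers in PTZ-ETH_10. No marker of the 6 lists passed the limma threshold in these groups after turning. Without turning, none passed in either day-14 group, and in PTZ-ETH_10, where 30.7% of probes passed, there passed 2 of 6 glial markers, both lower, and 1 of 2 neuronal markers, higher. The same fit passed 2 of 6 photoreceptor markers, 2 of 6 fat body markers and 1 of 3 muscle markers, all higher, and 2 of 4 haemocyte markers, 1 in each direction. The part of cell makeup in the values of the channel genes was not tested.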

How the data were processed

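The 12 arrays were spotted cDNA arrays with 2 colours. Per the series' design text and the submitters' processing notes, the authors quantified spots in Gene Pix Pro 6.0 and normalized ratios in Acuity 4.0, ignoring spots under 100 intensity units. What the authors deposited are log2 ratios between channels. The base was taken from the values: as linear ratios, 100% of 42 low values fell on a grid of 0.001 (tolerance 0.05 of a step). Centring and the numerator on dye swaps were not given in the sources used here. Deposited medians per array ran from -0.353 to 0.0285 in PTZ-ETH-NF_14, -0.315 to -0.025 in PTZ-NF-NF_14 and -0.6205 to -0.06 in PTZ-ETH_10.

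From these values, adjacent spots of a probe were averaged (27648 spots, 13824 probes), 5 spot values at the ceiling were set to missing, and each array was centred on its median. The platform annotation gave 1 gene to 7558 probes, several to 51 and none to 6215, and 7447 were matched to a current symbol. The files name no genome build, so no positions are given. With limma 3.58.1 (lmFit, eBayes) in R 4.3.3, all 12 arrays were fitted with a mean per group and a common dye term, with 2-sided tests and Benjamini-Hochberg adjustment over all probes tested in a comparison. The procedure was tested on simulated data. The number of arrays limits the precision.

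All probes of the channel genes are reported. From each related list the 2 genes with the smallest p per comparison, and any past the threshold, were eligible for naming, and the 3 probes of other genes with the highest correlation were named where at least 10 arrays were shared. The nAChR, ClC and other lists, the members and the tests were chosen with earlier results of these data known. Groups and replicate numbers come from the titles. The labels call the arrays of a group biological replicates and leave unstated whether groups shared untreated pools. Same-numbered arrays of PTZ-ETH-NF_14 and PTZ-NF-NF_14 deviated together in all 4 pairs (r = 0.20, 0.56, 0.47 and 0.32), while pairs with PTZ-ETH_10 went down to -0.12. Same numbers share a dye orientation, and after the dye term the day-14 pairs had r = 0.31, 0.14, 0.12 and 0.14 and pairs with PTZ-ETH_10 ran from -0.49 to -0.14. The alternatives changed 1 choice or left out 1 array at a time, with 1 combination added after seeing the data. No 2 arrays were duplicates: the highest share of identical values among 66 pairs was 0.289%.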

Additional observations from a re-analysis of the deposited data

How the results depend on the processing

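Of the 19 fitted values of channel genes, 6 passed the threshold without turning the dye swaps, 3 when block medians were also subtracted (added after seeing the data), and 0 under every other alternative run, where the lowest limma adjusted p was 0.334. The values that reversed in sign and passed without turning were those of PTZ-ETH_10 for Lcch3 (0.67), GluClalpha (-0.42), CG6927 (-0.47), Ca-alpha1D (0.91) and Ca-beta (-0.43) and the mean of the groups for GluClalpha (-0.26). With block medians subtracted as well they were GluClalpha (-0.55) and Ca-alpha1D (0.65) in PTZ-ETH_10 and the mean for GluClalpha (-0.28). The cause was not tested. Leaving out 1 array at a time changed the sign of 16 of 77 values and the call of none.

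Counts of all probes past the threshold moved more. In PTZ-ETH-NF_14 the count was 0, and 7 without turning and with block medians subtracted. In PTZ-NF-NF_14 it was 0, and 3 without turning, 6 with block medians also subtracted, 275 with the group's own arrays only, 72 with array weights and 42 after scaling arrays to 1 spread. In PTZ-ETH_10 it was 22, and 2912 without turning, 1660 with block medians also subtracted, 1 with own arrays only, 9 without a dye term, 0 with scaled arrays (limma, 328 at an unadjusted p under 0.05), 9 with array weights, 11 with the replicate block and 2 to 14 without 1 array (12, 2, 14 and 5 without replicates 1, 2, 3 and 4). For the mean of the groups it was 1, and 697 without turning, 431 with block medians also subtracted, 3 with block medians subtracted after turning, 23 scaled, 7 with weights, 5 where all 4 arrays of a group were measured and 0 to 3 without 1 array (0 without PTZ-ETH_10 replicate 2 or 3, with limma's 520 and 499 at an unadjusted p under 0.05, and 3 without PTZ-ETH-NF_14 replicate 2). For PTZ-ETH-NF_14 minus PTZ-ETH_10 it was 2, and 229 without turning, 157 with block medians also subtracted, 0 with own arrays, no dye term, scaling, weights or the replicate block, and 0 to 4 without 1 array, the highest without PTZ-ETH_10 replicate 1; these counts of 0 had 126 to 225 probes at an unadjusted p under 0.05 by limma. The replicate block changed the call of none of 18 channel gene values (lowest limma adjusted p 0.617). In PTZ-ETH-NF_14, 8 of the 9 channel probes had under 3 arrays and could not be tested.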
